A study of Mus musculus with 18 samples.

Results

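The genes described here encode the proteins of the mitochondrial ribosome. They were taken by name, as every gene of the deposited table whose symbol is Mrpl (large subunit) or Mrps (small subunit) followed by a number and at most 1 letter. This gave 78 of 54532 genes, 49 Mrpl and 29 Mrps, on 17 chromosomes, with the most, 11, on chromosome 11. The mean FPKM (fragments per kilobase of gene, scaled to the depth of the library) was at least 1 for 77 of them, which entered the tests with 11084 genes in all. The remaining one, Mrpl53, was listed at 0 in all 18 libraries, and 88.0% of its exon bases are shared on the same strand with other annotated genes.

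Expression was measured by sequencing polyadenylated RNA of KPCA.B, a mouse cell line of high-grade serous ovarian cancer, with 3 libraries in each of 6 groups. The groups were shNdufa5_1, the line labelled shNdufa5_2 and shControl in SCM, and the same lines in PCM. shNdufa5_1 and shNdufa5_2 carry different short hairpin RNAs against Ndufa5, a subunit of respiratory complex I, and shControl carries a control hairpin. SCM is medium conditioned by cells made senescent with cisplatin, and PCM is medium conditioned by proliferating cells given only the vehicle, DMF. Either was mixed in equal parts with fresh high-glucose DMEM containing 4% heat-inactivated serum, EGF at 2 ng/mL and the supplement ITS-G. Whether a hairpin line is a pool or a single clone, and whether replicates were grown as separate cultures, is not stated in the labels. The p-values therefore measure the spread between these libraries, which may be technical. The comparisons ask how SCM and the hairpins changed RNA levels in the cells that received the medium.

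Mitochondria keep a ribosome of their own, which makes the few proteins encoded by mitochondrial DNA, all of them subunits of respiratory complexes or of ATP synthase. Its RNAs come from the mitochondrial genome, while all its proteins come from nuclear genes and are imported. Part of these proteins have counterparts in bacterial ribosomes and part are found only in mitochondria. In the small subunit the messenger RNA is decoded, and in the large subunit peptide bonds are formed.

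The promoters of the 3 members that differed most upward and the 3 that differed most downward between SCM and PCM in shControl are printed to show the stretch of DNA that precedes them. The RefSeq starts of Mrps24, Mrpl1 and Mrpl32 lie inside those genes as GRCm38 annotates them, 7979, 622 and 128 bases from the annotated start, and the other 3 lie within 3 bases of it. Each window holds 250 bases before and 50 bases after the RefSeq start on GRCm38.p6, in lower case, with motif matches on either strand in capitals. The windows are chr11:5707652-5707951 (minus strand) for Mrps24, chr17:26123253-26123552 (plus strand) for Mrpl28, chr14:54426659-54426958 (plus strand) for Mrpl52, chr2:28467816-28468115 (plus strand) for Mrps2, chr5:96209865-96210164 (plus strand) for Mrpl1 and chr13:14612988-14613287 (minus strand) for Mrpl32.
Mrps24: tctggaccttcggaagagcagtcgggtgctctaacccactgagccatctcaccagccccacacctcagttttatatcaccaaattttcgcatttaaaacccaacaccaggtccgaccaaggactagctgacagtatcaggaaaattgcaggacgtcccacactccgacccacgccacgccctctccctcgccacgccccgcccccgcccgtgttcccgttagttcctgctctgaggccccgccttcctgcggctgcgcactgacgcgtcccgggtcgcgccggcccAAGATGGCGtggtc
Mrpl28: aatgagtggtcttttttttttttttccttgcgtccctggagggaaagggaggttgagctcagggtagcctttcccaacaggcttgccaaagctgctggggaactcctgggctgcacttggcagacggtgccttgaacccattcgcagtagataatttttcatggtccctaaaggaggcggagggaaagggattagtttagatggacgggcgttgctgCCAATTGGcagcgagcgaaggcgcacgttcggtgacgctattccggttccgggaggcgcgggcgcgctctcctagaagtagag
Mrpl52: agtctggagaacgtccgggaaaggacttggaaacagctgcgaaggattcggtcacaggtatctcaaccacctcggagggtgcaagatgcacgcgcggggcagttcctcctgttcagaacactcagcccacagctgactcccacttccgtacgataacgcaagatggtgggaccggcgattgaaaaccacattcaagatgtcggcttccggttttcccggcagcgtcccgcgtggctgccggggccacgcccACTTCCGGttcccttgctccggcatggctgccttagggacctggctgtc
Mrps2: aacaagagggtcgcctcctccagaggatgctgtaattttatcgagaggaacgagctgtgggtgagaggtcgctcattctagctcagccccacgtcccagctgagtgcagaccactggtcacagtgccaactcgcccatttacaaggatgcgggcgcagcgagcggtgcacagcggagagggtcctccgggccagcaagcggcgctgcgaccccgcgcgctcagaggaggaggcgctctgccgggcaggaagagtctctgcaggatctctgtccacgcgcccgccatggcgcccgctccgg
Mrpl1: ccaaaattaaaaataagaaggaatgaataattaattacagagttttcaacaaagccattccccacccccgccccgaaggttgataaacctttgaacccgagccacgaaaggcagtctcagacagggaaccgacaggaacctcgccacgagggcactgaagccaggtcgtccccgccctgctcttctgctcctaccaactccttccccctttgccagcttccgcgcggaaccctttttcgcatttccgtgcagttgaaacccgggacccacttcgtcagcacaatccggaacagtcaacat
Mrpl32: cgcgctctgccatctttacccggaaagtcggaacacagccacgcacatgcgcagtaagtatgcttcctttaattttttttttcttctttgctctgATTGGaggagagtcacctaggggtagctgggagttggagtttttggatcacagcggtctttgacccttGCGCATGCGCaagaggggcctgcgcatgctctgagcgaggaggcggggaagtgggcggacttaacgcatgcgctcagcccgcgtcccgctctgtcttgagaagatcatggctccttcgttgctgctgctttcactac
The capitals mark AANATGGCG (YY1) in Mrps24, CCAAT on both strands, overlapping, in Mrpl28, CCGGAAGT (ETS factors such as GABP) on the opposite strand in Mrpl52, and CCAAT on the opposite strand together with GCGC, AT and GCGC joined (NRF1) in Mrpl32. Mrps2 and Mrpl1 held none of the motifs searched. A RefSeq window was found for 69 of the 78 genes. The YY1 motif was in 11 of the 69 (15.9%), against 6.26% of 7951 expressed protein-coding genes and 2.51% of 27025 windows. The ETS motif was in 11 (15.9%, against 9.71% and 4.00%), the NRF1 motif in 3 (4.35%, against 2.34% and 0.977%), the E-box CACGTG in 5 (7.25%, against 10.9% and 7.24%) and CCAAT in 27 (39.1%, against 39.4% and 37.9%). For the members the window nearest the annotated gene start was used, and for the comparison sets the first listed window of each gene. The shares set side by side thus come from windows chosen by unlike rules. These are matches of letters within the windows, given as a description.

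Library depth, recovered from the steps between low FPKM values, was 13800000 to 38900000 fragments, and a tested member held 115 to 7946 fragments in a library. Replicates of a group correlated at 0.979 to 0.990 on the log2 scale, and replicate 2 of shNdufa5_1 in PCM had the lowest mean correlation with its own replicates, 0.979. The feature Gm23935, 57 bases long, took 5.13 to 27.1% of a library's FPKM sum, and the highest share was in that library. Its share was 7.74, 8.75 and 5.13% in shControl in PCM and 16.3, 21.8 and 16.3% in SCM. In shNdufa5_1 it was 13.5, 27.1 and 10.6% in PCM and 15.9, 17.1 and 9.28% in SCM. Where the label is shNdufa5_2 it was 18.9, 18.3 and 16.1% in PCM and 7.45, 12.9 and 11.3% in SCM. Scaling to equal FPKM sums includes this feature, and its part in that scaling was not tested. Of 10 markers of ovarian or tubal carcinoma epithelium, 6 had a median of at least 1 FPKM, among them Pax8 and Krt7, while Wt1 and Muc16 were at 0 in all 18 libraries and Epcam had a median of 0.114 FPKM. Of 5 leukocyte markers 1, Cd68, had a median of at least 1 FPKM, and Ptprc, the common leukocyte marker, was at 0 in 17 libraries. The summed leukocyte list ranged over 0.985 to 2.17 FPKM in shNdufa5_1 in SCM, 7.50 to 10.3 in the libraries labelled shNdufa5_2 in SCM and 5.92 to 6.96 in shControl in SCM, and over 0.751 to 2.17, 6.18 to 8.70 and 2.01 to 2.25 FPKM in PCM. The summed epithelial list ranged over 1996 to 2060, 1198 to 1269 and 1618 to 1727 FPKM in SCM and over 1694 to 1735, 1197 to 1219 and 1048 to 1117 FPKM in PCM, in the same order of lines. Of 6 fibroblast markers, 3 had a median of at least 1 FPKM (Pdgfra, Col1a1 and Dcn), and the list summed to 3.84 to 4.35, 6.52 to 7.85 and 5.03 to 6.20 FPKM in SCM and 2.35 to 3.67, 4.66 to 5.45 and 3.41 to 4.05 FPKM in PCM. Of 4 endothelial markers 1, Plvap, did, while Pecam1 reached at most 0.0231 FPKM, and the list summed to 4.38 to 5.78, 8.01 to 10.54 and 5.67 to 8.48 FPKM in SCM and 2.20 to 2.70, 6.87 to 7.36 and 3.55 to 4.47 FPKM in PCM. These sums moved with the groups, and their part in the results was not tested.

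Ndufa5, the target of the hairpins, checks the labels. It stood at 6.46, 6.78 and 6.23 FPKM in shNdufa5_1 and 22.3, 26.2 and 20.9 FPKM in shControl, both in SCM, and at 6.23, 6.39 and 6.85 FPKM in shNdufa5_1 and 15.2, 19.0 and 22.1 FPKM in shControl in PCM. The groups were apart in both media, with log2 differences of -1.68 ± 0.121 (SE) in SCM and -1.39 ± 0.121 in PCM (limma, Benjamini-Hochberg adjusted p = 9.80e-09 and 1.47e-07). Where the label is shNdufa5_2 it stood at 14.6, 16.1 and 20.2 FPKM in SCM and 18.7, 17.2 and 16.8 FPKM in PCM. The difference from shControl was -0.43 ± 0.121 in SCM (limma adjusted p = 0.0125), a call that was lost without replicate 2 of shControl in SCM (-0.34) or without replicate 1 of the libraries labelled shNdufa5_2 in SCM (-0.33). In PCM it was -0.08 ± 0.121 (adjusted p = 0.647) and the groups overlapped. At equal FPKM sums of the libraries the differences where the label is shNdufa5_2 were -0.15 in SCM, no longer called, and -0.42 in PCM, then called. An exact two-sided permutation test gave p = 0.1, the smallest possible with 3 libraries against 3, in the 3 comparisons whose groups were apart, and p = 0.6 in the remaining one. On the deposited scale, Ndufa5 in shControl was itself higher in SCM than in PCM (0.30 ± 0.121, limma adjusted p = 0.0436). These groups overlapped, and the exact permutation test gave p = 0.2. Where the label is shNdufa5_2 the SCM difference was -0.05 ± 0.121 and not called (limma adjusted p = 0.794). The second hairpin is therefore named by its label.

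Mean levels over the 18 libraries spanned 30.6-fold among the 77 genes. Mrpl2, whose bacterial counterpart lies next to the site of peptide bond formation, was highest at 92.8 FPKM, followed by Mrpl28 at 83.9, Mrpl38 at 68.2, Mrpl24 at 52.9 and Mrpl14 at 51.5 FPKM. At the low end were Mrpl48 at 3.03, Mrps25 at 3.41, Mrps35 at 3.47, Mrpl32 at 4.38 and Mrps31 at 4.65 FPKM, all of them still measured with at least 182 fragments in each library. All 5 of the highest belonged to the large subunit, while the 5 lowest came from both. Mrps25 shares 69.8% of its exon bases with the gene on the opposite strand and Mrpl24 shares 26.3%. Strand use in counting is not given in the sources used here, so reads of such partners cannot be told apart.

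Summed over all members, expression reached 1474 ± 18.7 FPKM in shNdufa5_1, 1718 ± 14.2 FPKM in the libraries labelled shNdufa5_2 and 2048 ± 50.8 FPKM in shControl in SCM (SD, n = 3 each). The corresponding sums in PCM were 1396 ± 37.3, 1778 ± 36.7 and 1606 ± 24.6 FPKM. On this deposited scale shControl in SCM was the highest of the 6 groups, a rank it lost in shares of the FPKM sum. shNdufa5_1 was the lowest of the 3 lines in either medium, also by the group means of both shares given next. In the share of the FPKM sum its libraries overlapped those of another line in either medium. As a percentage of the FPKM sum of a library, members took 0.436 ± 0.019, 0.465 ± 0.016 and 0.452 ± 0.015 in SCM and 0.431 ± 0.053, 0.467 ± 0.0034 and 0.541 ± 0.016 in PCM, in the same order of lines, and shControl was lower in SCM than in PCM without overlap. As a share of the fragments of a library, they took 0.341%, 0.358% and 0.399% in SCM and 0.339%, 0.391% and 0.385% in PCM. In these bulk libraries a change in the number of cells cannot be told apart from a change in RNA per cell.

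**Figure D1:**
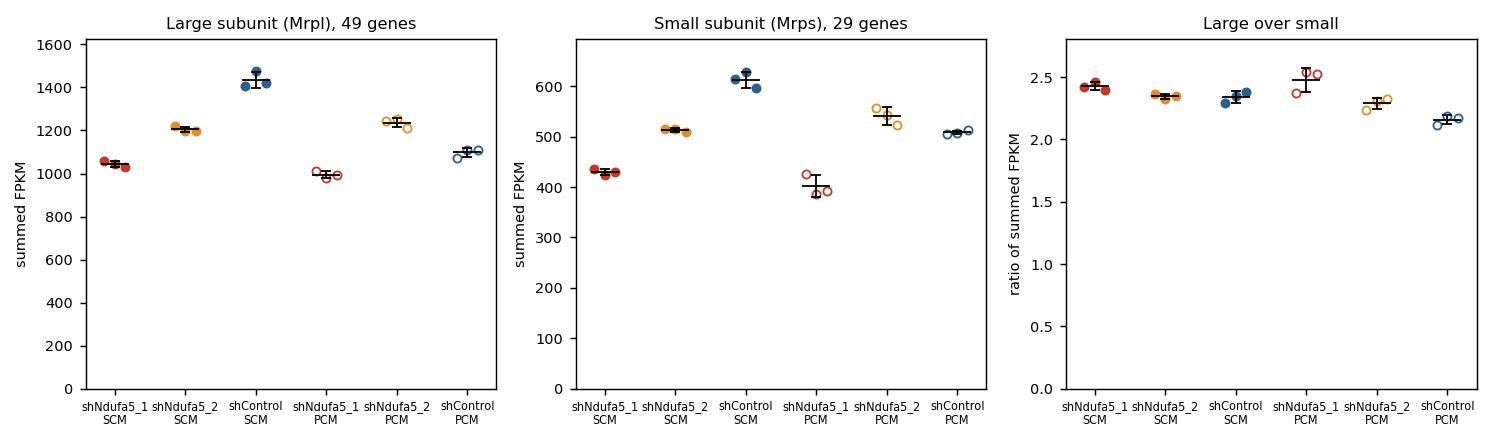
Summed FPKM of the large subunit genes (left), of the small subunit genes (middle) and the ratio of the sums (right) in each of 18 libraries, with the mean and SD of each group of 3. On the deposited scale shControl in SCM had the highest sums of both subunits, an order that did not hold for the members' share of a library's FPKM sum, while the ratio was lowest in shControl in PCM, at 2.12 to 2.19. The axes start at 0.

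Large subunit genes summed to 2.12 to 2.54 times the small subunit genes, with 49 genes in the large subunit and 29 in the small. The ratio was 2.43 ± 0.031 in shNdufa5_1, 2.35 ± 0.021 in the libraries labelled shNdufa5_2 and 2.34 ± 0.048 in shControl in SCM. In PCM it was 2.48 ± 0.095, 2.29 ± 0.047 and 2.16 ± 0.036. The 3 shNdufa5_1 libraries lay above the 3 shControl libraries in both media, at 2.40 to 2.46 against 2.29 to 2.38 in SCM and at 2.37 to 2.54 against 2.12 to 2.19 in PCM. shControl was also higher in SCM than in PCM without overlap. This ratio does not depend on how libraries are scaled to each other. Expressed as the difference between the median log2 differences of the subunits, large minus small was 0.11 for shNdufa5_1 against shControl in PCM, between -0.06 and 0.05 in the 8 other contrasts, and 0.0897 was its SD between replicates.

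Most of the members were higher in SCM than in PCM in shControl on the deposited scale, a direction that turned when libraries were rescaled to equal FPKM sums. Of 77 genes, 47 were higher and 11 lower in SCM than in PCM at an adjusted p under 0.05 (limma, Benjamini-Hochberg), or 61% and 14.3%, against 31.7% higher and 30.2% lower among all 11084 genes tested. Members thus exceeded the background upward and fell short of it downward. Their median log2 difference in log2(FPKM + 1) was 0.27, against 0.00 for all genes. The groups did not overlap for 57 of the 77 members, against 66.1% of all genes. The median turned to -0.30 when libraries were rescaled to the same FPKM sum, where all genes stood at -0.50, so that members stood 0.19 above it, against 0.27 above it on the deposited scale. With libraries rescaled to the same number of fragments, the median was 0.04 and that of all genes -0.20.

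Mrps24, the counterpart of bacterial S3 at the entry of the messenger RNA channel, showed the largest rise. Its level was 42.8, 49.1 and 51.8 FPKM in SCM and 23.2, 23.1 and 22.5 FPKM in PCM, a log2 difference of 1.03 ± 0.0594 (SE, limma adjusted p = 8.80e-10). All 3 SCM libraries lay above all PCM libraries. Mrps24 shares 15.4% of its exon bases with the gene Urgcp on the same strand, and reads from these bases cannot be told apart. Mrpl28, a large subunit protein with a bacterial counterpart, had 133, 138 and 135 FPKM in SCM and 71.2, 67.3 and 67.1 FPKM in PCM (0.97 ± 0.0364, adjusted p = 8.61e-12). Mrpl52, a mitochondria-specific protein of the large subunit, had 56.8, 59.2 and 52.1 FPKM in SCM and 26.5, 33.1 and 31.2 FPKM in PCM (0.87 ± 0.117, adjusted p = 1.10e-05). No SCM library of these 3 genes fell into the range of PCM.

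Mrpl42, also specific to mitochondria, followed with 15.6, 17.5 and 15.2 FPKM in SCM and 8.05, 9.60 and 9.32 FPKM in PCM (0.77 ± 0.0766, limma adjusted p = 3.93e-07). Mrpl12 forms the flexible stalk of the large subunit that receives translation factors, and had 53.1, 59.9 and 59.8 FPKM in SCM and 32.4, 34.8 and 34.0 FPKM in PCM (0.75 ± 0.0676, adjusted p = 1.33e-07). Mrpl58, a peptidyl-tRNA hydrolase that frees stalled ribosomes and is also built into the large subunit, had 16.9, 17.9 and 17.6 FPKM in SCM and 10.6, 10.9 and 9.63 FPKM in PCM (0.70 ± 0.0789, adjusted p = 1.64e-06). The groups were apart for all 3. Mrpl15 (0.60 ± 0.0753) and Mrpl24 (0.59 ± 0.0487), both with bacterial counterparts, completed the 8 largest rises, at adjusted p = 5.00e-06 and 5.23e-08 in limma, although Mrpl24 stood at -0.01 at equal FPKM sums.

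Among the 11 genes that went the other way, Mrps2, the counterpart of bacterial S2, fell to 10.96, 10.3 and 11.9 FPKM in SCM, against 18.8, 19.9 and 19.2 FPKM in PCM (-0.75 ± 0.0596, limma adjusted p = 3.21e-08). Mrpl1, whose bacterial counterpart forms the stalk beside the exit of the spent tRNA, had 3.24, 3.41 and 3.86 FPKM in SCM and 5.77, 6.07 and 6.81 FPKM in PCM (-0.68 ± 0.0896, adjusted p = 8.70e-06). Both had every SCM library below every PCM library. Mrpl32, a zinc-binding protein of the large subunit that is cut to its mature form inside mitochondria, had 3.49, 4.05 and 3.74 FPKM in SCM and 5.35, 5.60 and 5.68 FPKM in PCM (-0.46 ± 0.106, adjusted p = 0.00143). Smaller falls were those of the mitochondria-specific Mrps22 (-0.39 ± 0.0723), Mrps31 (-0.33 ± 0.105, with overlapping groups), Mrpl18 (-0.29 ± 0.0824), Mrpl3 (-0.28 ± 0.0564) and Mrps26 (-0.27 ± 0.0631). Their adjusted p in limma lay between 2.28e-04 and 0.0127.

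**Figure D2:**
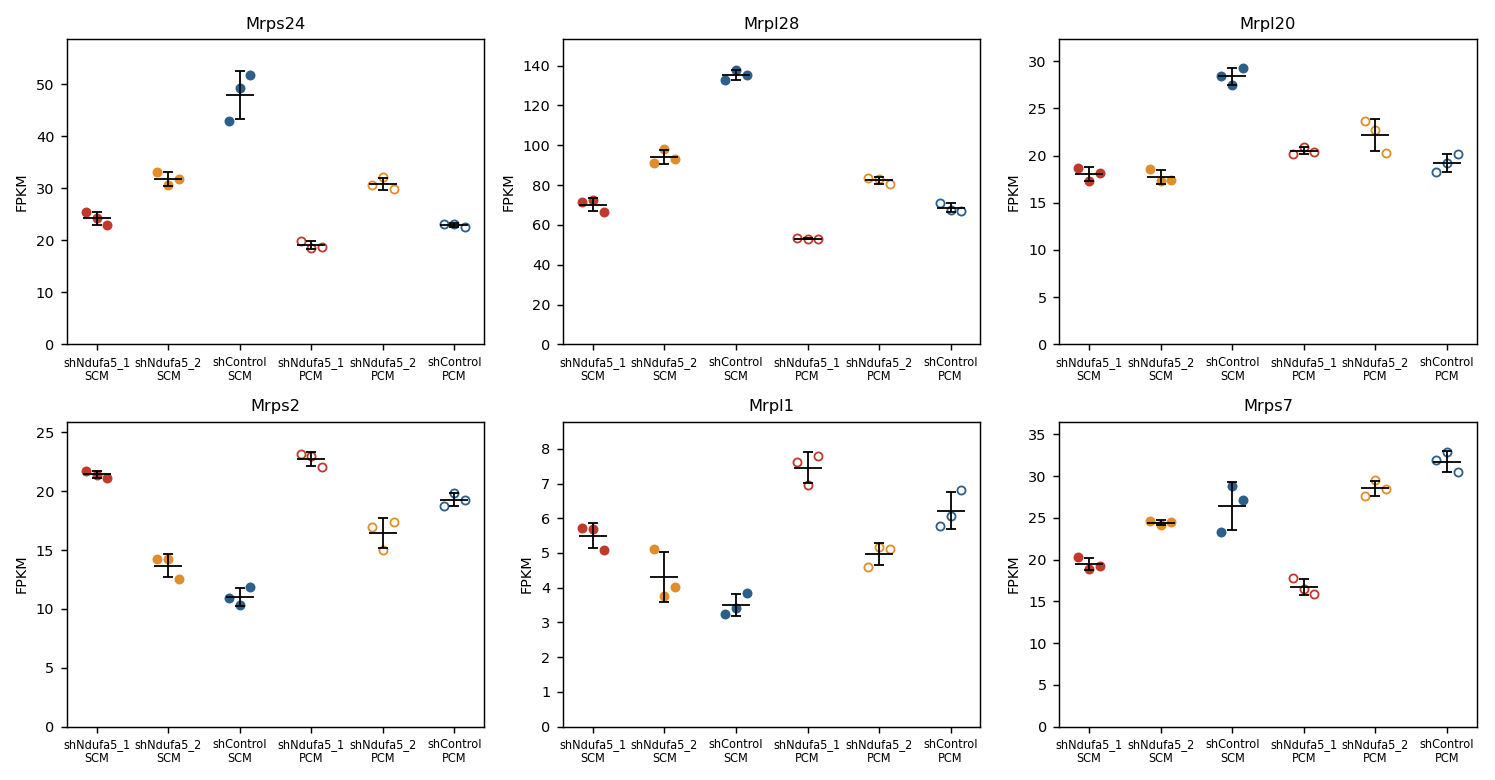
FPKM of Mrps24, Mrpl28, Mrpl20, Mrps2, Mrpl1 and Mrps7 in each of 18 libraries, with the mean and SD of each group of 3. On the deposited scale Mrps24, Mrpl28 and Mrpl20 were highest in shControl in SCM (the SCM difference of Mrpl20 was -0.04 at equal FPKM sums), where Mrps2 and Mrpl1 were lowest, and Mrps7 was lowest in shNdufa5_1 in both media.

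By subunit, 30 of 48 large subunit genes were higher and 6 lower in SCM in shControl, with a median of 0.30, and 17 of 29 small subunit genes were higher and 5 lower, with a median of 0.26. The members with a bacterial counterpart (27 of 46 higher, 7 lower, median 0.26) and those specific to mitochondria (19 of 30 higher, 4 lower, median 0.28) gave similar counts. Mrps30 and Mrps18a are placed in the large subunit by structures of the mammalian mitochondrial ribosome, and Mrps36 belongs to a dehydrogenase complex. With those genes moved or left out, the medians were 0.30 for 50 large and 0.26 for 26 small subunit genes. Among the 45 members whose exons no other gene overlaps, 31 were higher and 6 lower. Large minus small was 0.19 among these, against 0.04 over all members and -0.06 with GC and length trends removed.

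Base composition and length moved with the response. Over the 77 members, the SCM difference in shControl correlated with the GC content of the transcripts at a Spearman rho of 0.354, with their length at -0.203 and with the mean level at 0.424. Over 11074 genes these values were 0.545, -0.322 and 0.276. Members had a median GC content of 50.4%, against 50.2% for all genes, and a median exon length of 2533 bases, against 4188. After removal of each library's trend with GC content and length, 39 members were higher and 11 lower and the median was 0.17, against 0.03 for all genes. Mrps24 then differed by 0.61, Mrpl28 by 0.58 and Mrps2 by -0.77, while Mrpl32, Mrps31 and Mrpl3 lost their calls at limma adjusted p = 0.865, 0.581 and 0.170.

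**Figure D3:**
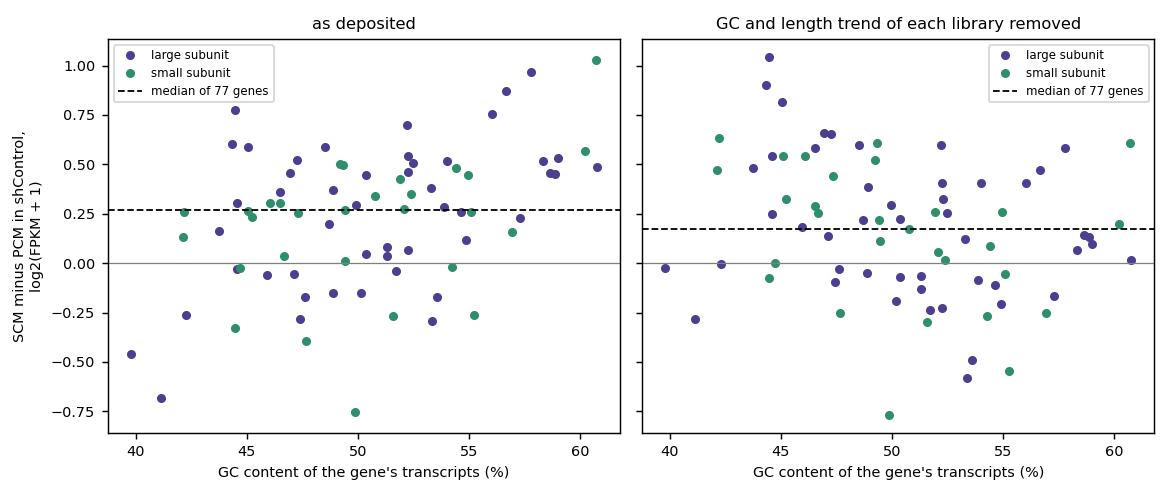
Difference between SCM and PCM in shControl, in log2(FPKM + 1), against the GC content of the transcripts for 77 genes, as deposited (left) and after removal of each library's trend with GC content and with length (right). The dashed line is the median, 0.27 on the left and 0.17 on the right.

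Fewer members passed the test between the media in the hairpin lines. In shNdufa5_1, 13 members were higher and 9 lower in SCM than in PCM, with a median of 0.06 (limma, against 22.5% higher and 19.8% lower among all genes). In the libraries labelled shNdufa5_2, 2 were higher and 11 lower, with a median of -0.07 (against 11.7% and 11.1%). Members were called less often than the background both ways in shNdufa5_1 (16.9% and 11.7%), and where the label is shNdufa5_2 less often upward (2.6%) and near the background downward (14.3%). Groups were apart for 30 of 77 members in shNdufa5_1 and for 27 in the libraries labelled shNdufa5_2, against 52.2% and 37.8% of all genes. Leaving out replicate 1 of shNdufa5_1 in SCM took its counts to 7 and 3, and leaving out replicate 1 of the libraries labelled shNdufa5_2 in PCM took theirs to 7 lower, below the background.

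Of the 47 genes that rose in shControl, 12 also rose in shNdufa5_1, which is all but 1 of its 13, and of the 11 that fell, 6 fell in shNdufa5_1 too, out of its 9. The libraries labelled shNdufa5_2 shared 2 of the 47 rises (both of theirs), Mrpl28 and Mrpl42, and 6 of the 11 falls (out of their 11). For scale, 61% of the 77 members were called higher and 14.3% lower in shControl. The overlap among all genes was not counted, so these counts are not read as particular to the members. Mrpl28 was the single member called higher in SCM in all 3 lines, with 71.7, 72.2 and 66.7 FPKM in SCM and 53.3, 53.1 and 52.7 FPKM in PCM in shNdufa5_1 (0.40 ± 0.0364, limma adjusted p = 8.99e-07). In the libraries labelled shNdufa5_2 it had 91.3, 98.0 and 92.9 FPKM in SCM and 83.8, 83.3 and 80.4 FPKM in PCM (0.19 ± 0.0364, adjusted p = 0.00181). Mrps22, a mitochondria-specific protein of the small subunit, Mrps26 and Mrpl9 were called lower in SCM in all 3 lines. In shNdufa5_1 the groups of Mrps22 overlapped, at 7.39, 7.44 and 7.91 FPKM in SCM and 9.86, 7.47 and 9.47 FPKM in PCM. Its difference there ranged over -0.31 to -0.13 with single libraries left out. The call of Mrpl9 in shNdufa5_1 (-0.17 ± 0.0618, limma adjusted p = 0.0417) was lost under several alternatives, among them the replicate block (adjusted p = 0.0556).

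The other large rises of shNdufa5_1 in SCM were those of Mrps34 (0.39 ± 0.12), Mrpl14 (0.37 ± 0.0461), Mrpl48 (0.33 ± 0.0817), Mrps24 (0.33 ± 0.0594), Mrpl11 (0.33 ± 0.115), Mrps27 (0.32 ± 0.0614) and Mrpl30 (0.30 ± 0.0701), and Mrps34 shares 77.8% of its exon bases with other genes. Its largest falls were those of Mrpl50, specific to mitochondria, with 12.9, 14.5 and 13.8 FPKM in SCM and 17.2, 18.2 and 19.8 FPKM in PCM (-0.40 ± 0.0721, limma adjusted p = 4.51e-04), and of Mrpl1 (-0.38 ± 0.0896), Mrps31 (-0.27 ± 0.105), Mrpl47 (-0.27 ± 0.0822), Mrps22 (-0.20 ± 0.0723) and Mrps26 (-0.18 ± 0.0631). Mrps27 and Mrpl47 each share 24.2% of their exon bases with genes on the opposite strand. In the libraries labelled shNdufa5_2, Mrpl42 rose by 0.28 ± 0.0766, and the falls were led by Mrps22 (-0.40 ± 0.0723) and Mrps12 (-0.36 ± 0.119), with Mrps26 (-0.32 ± 0.0631), Mrpl9 (-0.26 ± 0.0618), Mrps2 (-0.25 ± 0.0596) and Mrps7 (-0.22 ± 0.0622) among the 8 largest.

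Mrpl20, a large subunit protein with a bacterial counterpart, changed direction between the lines. In shControl it rose to 28.4, 27.5 and 29.3 FPKM in SCM, against 18.2, 19.2 and 20.2 FPKM in PCM (0.54 ± 0.0535, limma adjusted p = 3.89e-07). In shNdufa5_1 it fell to 18.7, 17.3 and 18.1 FPKM in SCM, against 20.2, 20.96 and 20.4 FPKM in PCM (-0.18 ± 0.0535, adjusted p = 0.0149). Where the label is shNdufa5_2 it fell to 18.6, 17.3 and 17.4 FPKM in SCM, against 23.6, 22.7 and 20.3 FPKM in PCM (-0.31 ± 0.0535, adjusted p = 8.24e-04). In each line the groups were apart. Mrps7, whose bacterial counterpart builds the head of the small subunit, fell in shControl (-0.26 ± 0.0622, adjusted p = 0.00186) and rose in shNdufa5_1 (0.21 ± 0.0622, adjusted p = 0.0135). Mrpl46, specific to mitochondria, rose in shControl (0.51 ± 0.0919, adjusted p = 1.94e-04) and fell in the libraries labelled shNdufa5_2 (-0.33 ± 0.0919, adjusted p = 0.0182). Rescaled to equal FPKM sums, the shControl differences of Mrpl20 and Mrpl46 were -0.04 and -0.06.

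The difference between the responses was itself tested as a contrast of contrasts. The response of shNdufa5_1 was lower than that of shControl for 22 members and higher for 2, with a median of -0.17 (limma, against 15.5% lower and 10.7% higher among all genes). For the libraries labelled shNdufa5_2 it was lower for 44 and higher for 2, with a median of -0.32 (against 24.1% and 18.9%). Both contrasts use the same shControl libraries. The medians turned to 0.35 and 0.29 when libraries were scaled to equal FPKM sums, where all genes stood at 0.46 and 0.52, and members then stood at -0.11 and -0.23 relative to it. Scaled to equal fragments they were 0.03 and -0.14, or -0.13 and -0.27 relative to all genes.

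Mrps24 had one of the largest differences between responses, -0.70 ± 0.084 for shNdufa5_1 and -0.99 ± 0.084 for the libraries labelled shNdufa5_2 (limma adjusted p = 2.05e-05 and 4.11e-07). Its levels were 25.4, 24.3 and 22.9 FPKM in SCM and 19.9, 18.5 and 18.6 FPKM in PCM in shNdufa5_1, and 33.1, 30.6 and 31.7 FPKM in SCM and 30.6, 32.1 and 29.7 FPKM in PCM in the libraries labelled shNdufa5_2. Hence SCM stood above PCM without overlap in shNdufa5_1, and the ranges overlapped in the libraries labelled shNdufa5_2. Mrps2 differed in the opposite sense, by 0.67 ± 0.0843 and 0.51 ± 0.0843 (adjusted p = 2.99e-05 and 2.01e-04). Of 48 large subunit genes the response was lower for 18 in shNdufa5_1 (37.5%) and 29 where the label is shNdufa5_2 (60.4%). Of 29 small subunit genes it was lower for 4 (13.8%) and 15 (51.7%). Among all genes the shares lower were 15.5% and 24.1%. The medians differed little between the subunits, with large minus small at -0.06 and -0.03 beside an SD between replicates of 0.0897.

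In PCM, shNdufa5_1 had lower levels of many members than shControl, under each of the 3 scalings. Of 77, 36 were lower and 8 higher, with a median of -0.17 (limma, against 27.1% lower and 25.6% higher among all genes), and the groups were apart for 51, against 59.8%. Small subunit genes had a median of -0.28 with 17 of 29 lower and 3 higher, and large subunit genes a median of -0.16 with 19 of 48 lower and 5 higher. Without GC and length trends, 33 were lower and 13 higher. Leaving out replicate 2 of shNdufa5_1 in PCM, the library with the lowest correlation with its replicates, gave 31 lower and 8 higher, and the count of higher genes was 4 without replicate 2 of shControl in PCM and 5 without replicate 3 of shNdufa5_1 in PCM.

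The largest fall was that of Mrps7, to 17.7, 16.5 and 15.9 FPKM in shNdufa5_1, against 31.9, 32.9 and 30.4 FPKM in shControl (-0.89 ± 0.0622, limma adjusted p = 1.43e-08). Mrps12, whose bacterial counterpart sits at the decoding site, had 15.1, 16.7 and 12.4 FPKM in shNdufa5_1 and 25.2, 23.5 and 24.0 FPKM in shControl (-0.69 ± 0.119, adjusted p = 1.68e-04). Every shNdufa5_1 library was below every shControl library for both. Further falls were those of Mrps27, a pentatricopeptide repeat protein (-0.62 ± 0.0614), Mrps22 (-0.60 ± 0.0723), Mrpl57 (-0.57 ± 0.0737), Mrps17 (-0.54 ± 0.0384), Mrps28 (-0.52 ± 0.105) and Mrps16 (-0.52 ± 0.0924), so 7 of the 8 largest were small subunit genes. On the other side, Mrpl10, which anchors the stalk of the large subunit, had 31.9, 31.0 and 32.1 FPKM in shNdufa5_1 and 25.9, 25.1 and 22.3 FPKM in shControl (0.36 ± 0.0695, adjusted p = 4.07e-04). Mrps35 (0.33 ± 0.0737), Mrpl47 (0.30 ± 0.0822), Mrpl50 (0.23 ± 0.0721), Mrpl1 (0.23 ± 0.0896), Mrps2 (0.23 ± 0.0596), Mrpl39 (0.21 ± 0.0642) and Mrps9 (0.14 ± 0.0547) were the others called higher.

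The libraries labelled shNdufa5_2 in PCM went mostly the other way on the deposited scale, with a median that turned at equal FPKM sums. Against the same shControl libraries, 23 members were higher and 4 lower, with a median of 0.10 (limma, against 19.3% higher and 16.3% lower among all genes), and the groups were apart for 41 of 77, against 49.8%. Large subunit genes made up 20 of the 23 that rose, and 48 of the 77 members tested. The subunit medians were 0.13 for large and 0.08 for small, and large minus small was 0.05 beside an SD between replicates of 0.0897. Mrpl52 (0.44 ± 0.117) rose most, with 40.1, 49.4 and 35.7 FPKM in the libraries labelled shNdufa5_2 and 26.5, 33.1 and 31.2 FPKM in shControl (limma adjusted p = 0.00785). Mrpl24 (0.43 ± 0.0487) and Mrps24 (0.41 ± 0.0594) were among the largest rises, with 30.6, 32.1 and 29.7 FPKM of Mrps24 in the libraries labelled shNdufa5_2 and 23.2, 23.1 and 22.5 FPKM in shControl (adjusted p = 7.62e-05). Mrps34 (0.40 ± 0.12), Mrpl46 (0.38 ± 0.0919), Mrpl10 (0.35 ± 0.0695), Mrpl30 (0.35 ± 0.0701) and Mrpl54 (0.35 ± 0.119) completed the 8, of which Mrpl54 stood at -0.0021 at equal FPKM sums. The 4 that fell were Mrpl32 (-0.30 ± 0.106), Mrpl1 (-0.27 ± 0.0896), Mrps2 (-0.22 ± 0.0596) and Mrpl3 (-0.22 ± 0.0564). The median was -0.23 at equal FPKM sums, where all genes stood at -0.30, and it was 0.02 at equal fragments. Without replicate 1 of shControl in PCM the count of higher genes was 15, as it was with GC and length trends removed.

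In SCM, both hairpins had lower levels than shControl on the deposited scale, but not at equal FPKM sums. In shNdufa5_1, 54 of 77 members were lower and 4 higher, with a median of -0.41 (limma, against 31.1% lower and 28.7% higher among all genes). The groups were apart for 61, against 65.1%. In the libraries labelled shNdufa5_2, 37 were lower and 1 higher, with a median of -0.20 (against 20% and 13.9%), and the groups were apart for 42, against 43.2%. Both comparisons use the same 3 shControl libraries, and without replicate 2 of these the counts were 23 lower for the libraries labelled shNdufa5_2 and 7 higher for shNdufa5_1. Scaled to equal FPKM sums the medians were 0.00 and 0.07, where all genes stood at 0.34 and 0.23, so that relative to all genes members were at -0.35 and -0.16. At equal fragments they were -0.23 and -0.11.

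Mrps24 had 25.4, 24.3 and 22.9 FPKM in shNdufa5_1 and 42.8, 49.1 and 51.8 FPKM in shControl in SCM (-0.95 ± 0.0594, limma adjusted p = 1.95e-09). Mrpl28 had 71.7, 72.2 and 66.7 FPKM in shNdufa5_1 and 91.3, 98.0 and 92.9 FPKM where the label is shNdufa5_2, against 133, 138 and 135 FPKM in shControl (-0.94 ± 0.0364 and -0.52 ± 0.0364, adjusted p = 1.07e-11 and 1.43e-07). Both genes had all libraries of both hairpins below shControl. Mrps12 (-0.89 ± 0.119), Mrps16 (-0.88 ± 0.0924), Mrpl57 (-0.86 ± 0.0737), Mrps28 (-0.76 ± 0.105), Mrpl34 (-0.75 ± 0.0925) and Mrpl42 (-0.73 ± 0.0766) were the next largest falls in shNdufa5_1. In the libraries labelled shNdufa5_2 the largest were those of Mrpl20 (-0.65 ± 0.0535), Mrpl58 (-0.60 ± 0.0789), Mrpl12 (-0.59 ± 0.0676) and Mrps24 (-0.57 ± 0.0594), each with groups apart, followed by Mrpl16 (-0.48 ± 0.111), Mrpl46 (-0.45 ± 0.0919) and Mrps12 (-0.45 ± 0.119).

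Mrps2 was the member called higher in SCM with both hairpins. It had 21.8, 21.4 and 21.1 FPKM in shNdufa5_1 and 14.2, 14.2 and 12.6 FPKM in the libraries labelled shNdufa5_2, against 10.96, 10.3 and 11.9 FPKM in shControl, and no library of either hairpin fell into the range of shControl. The differences were 0.90 ± 0.0596 and 0.29 ± 0.0596 (limma adjusted p = 3.92e-09 and 0.00188). Mrpl1 (0.53 ± 0.0896), Mrps35 (0.32 ± 0.0737) and Mrpl3 (0.18 ± 0.0564) were the others that rose in shNdufa5_1. Large subunit genes had medians of -0.40 in shNdufa5_1 and -0.18 where the label is shNdufa5_2, with -0.41 and -0.22 for small subunit genes. With GC and length trends removed, the counts in shNdufa5_1 were 46 lower and 4 higher with a median of -0.29, and the median of the large subunit then exceeded that of the small by 0.16.

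**Figure D4:**
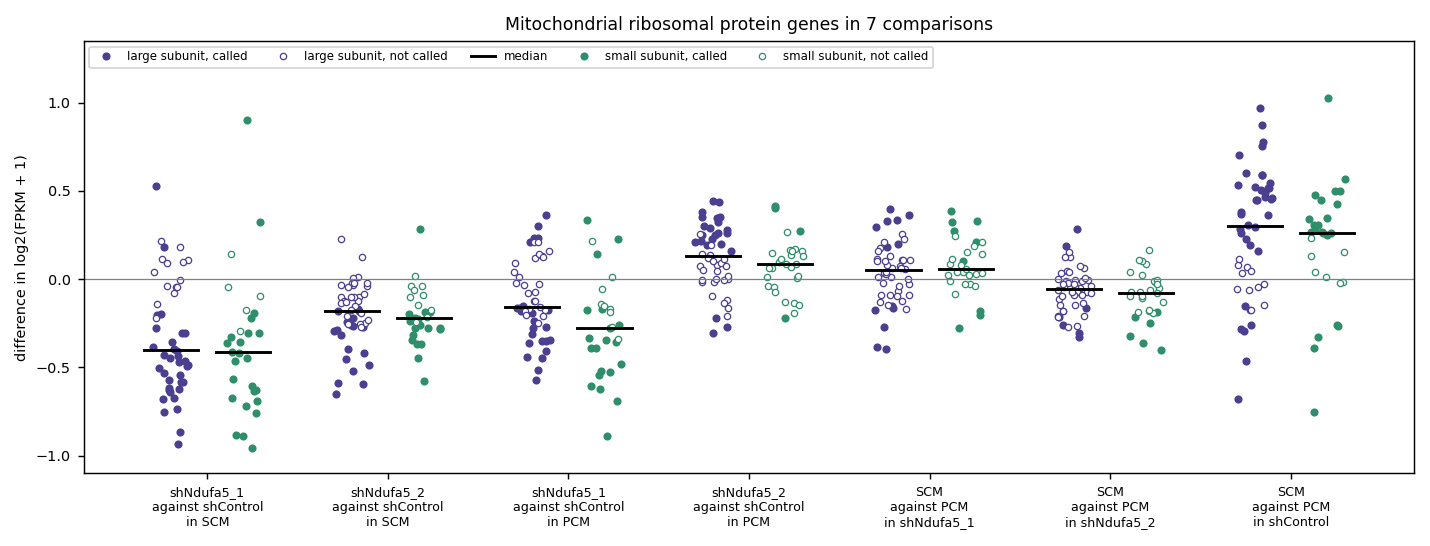
Log2 difference of each of 77 genes, in log2(FPKM + 1), in 7 comparisons, with large and small subunit genes apart. Members were mostly above 0 for SCM against PCM in shControl (median 0.27) and below 0 for shNdufa5_1 against shControl in SCM (median -0.41). With libraries scaled to equal FPKM sums these medians were -0.30 and 0.00, where all genes stood at -0.50 and 0.34.

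**Figure D5:**
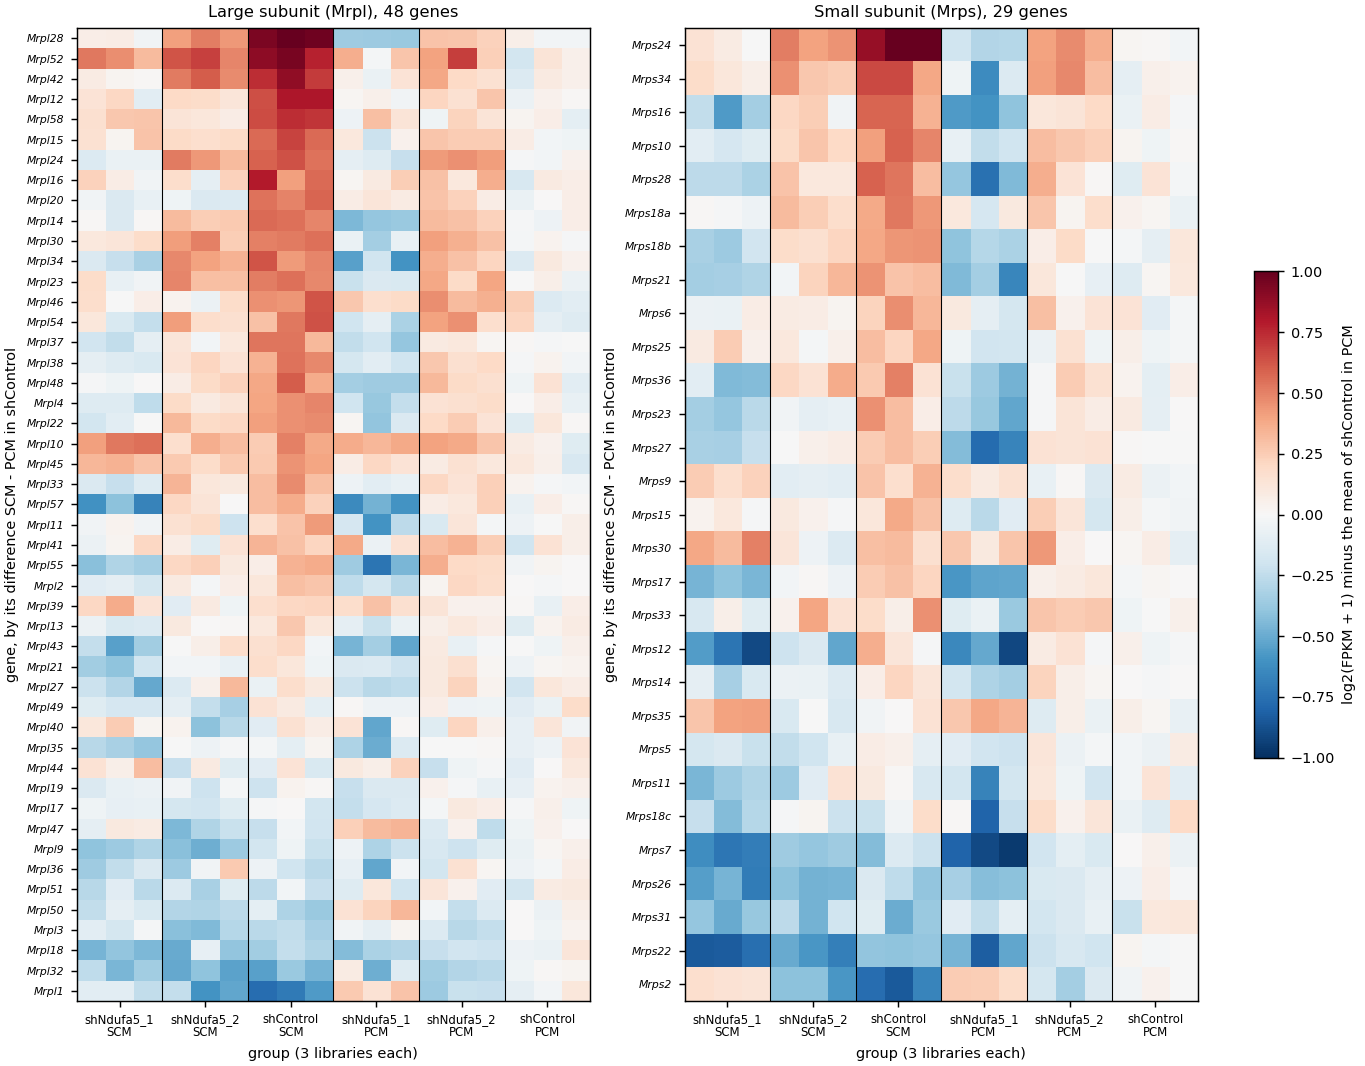
Level of each tested member in 18 libraries as the deviation of log2(FPKM + 1) from that gene's mean in shControl in PCM, with members grouped by subunit. Of 77 genes, 47 had their highest group mean in shControl in SCM on the deposited scale, where Mrps2 and Mrpl1 had their lowest.

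Paralogs moved in part together. Mrps18a, Mrps18b and Mrps18c are 3 nuclear copies of a bacterial S18-like protein. In SCM, Mrps18b had 19.1, 18.6 and 21.1 FPKM in shNdufa5_1 and 32.0, 33.2 and 33.4 FPKM in shControl (-0.72 ± 0.0601, limma adjusted p = 5.70e-08), and Mrps18a had 15.9, 15.6 and 15.2 FPKM in shNdufa5_1 and 20.8, 23.2 and 21.6 FPKM in shControl (-0.46 ± 0.0742, adjusted p = 6.01e-05). Each gene's groups were apart. Both also rose with SCM in shControl, by 0.45 ± 0.0742 for Mrps18a and 0.42 ± 0.0601 for Mrps18b (adjusted p = 8.86e-05 and 1.82e-05). The differences of Mrps18c did not pass the test, at -0.29 ± 0.16 for shNdufa5_1 against shControl in SCM and -0.02 ± 0.16 for SCM against PCM in shControl, with 95% intervals of -0.63 to 0.05 and -0.36 to 0.32. Mrps18b shares 30.5% of its exon bases with a gene on the opposite strand and Mrps18c 23.2% with one on the same strand. Mrps30 differed by 0.26 ± 0.103 in SCM against PCM in shControl (adjusted p = 0.0382) and by 0.14 ± 0.103 in shNdufa5_1 against shControl in SCM (adjusted p = 0.244). Mrps36 differed by 0.30 ± 0.109 and -0.63 ± 0.109 in the same comparisons (adjusted p = 0.0243 and 1.21e-04). At equal FPKM sums the shControl differences of Mrps18a, Mrps18b, Mrps30 and Mrps36 were -0.13, -0.16, -0.25 and -0.27.

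The rest of the mitochondrial translation apparatus was counted in the same fit. Of 5 mitoribosome subunits with other names, 4 rose and 1 fell in SCM against PCM in shControl. They were led by Gadd45gip1 (1.11), a large subunit protein, with Aurkaip1 (0.52), Chchd1 (0.43) and Dap3 (0.23), while Ptcd3 fell (-0.33). In shNdufa5_1 against shControl in SCM 3 of them fell and 2 rose. For all lists the shares to read against are those of all genes, 31.7% higher and 30.2% lower with SCM in shControl, and 28.7% higher and 31.1% lower in shNdufa5_1 against shControl in SCM. Of 15 mitochondrial translation factors, 3 rose and 6 fell with SCM in shControl, with a median of 0.01. Tufm, the elongation factor that delivers tRNA, rose (0.84), as did the membrane insertase Oxa1l (0.45), while the initiation factor Mtif2 (-0.63) and the deadenylase Pde12 (-0.64) fell. In shNdufa5_1 against shControl in SCM, 7 of the 15 rose and 3 fell, or 46.7% and 20%.

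Of 29 assembly and rRNA modification factors, 8 rose and 5 fell with SCM in shControl, with a median of 0.03. Mpv17l2 (0.84), the pseudouridine synthase Rpusd3 (0.80) and the GTPase Mtg1 (0.67) rose most, and the RNA-binding Fastkd2 (-0.79) and Fastkd5 (-0.74) fell most. Neither of the 2 mitochondrial rRNAs passed the test with SCM in shControl, while 5 of 12 mitochondrial mRNAs were higher and 1 lower, mt-Co1 by 0.68 and mt-Nd3 by -0.53. RNA was selected by its poly(A) tail, which bears on how well mitochondrial transcripts are captured. Among 14 regulators of nuclear genes for mitochondria, Esrra rose (0.43) and 6 fell, with a median of 0.02, among them Myc (-0.85), Tfb2m (-0.60), Tfam (-0.59) and Yy1 (-0.46). At equal FPKM sums, where all genes stood at -0.50, the medians of the lists for SCM against PCM in shControl were -0.16 for the subunits with other names, -0.55 for the translation factors, -0.47 for the assembly factors, -0.44 for the mitochondrial mRNAs and -0.54 for the regulators. The counts and medians of these lists are descriptions.

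The cytosolic ribosomal protein genes build the ribosome outside mitochondria. With SCM in shControl 73 of 75 were higher and none lower, with a median of 1.01, while 71 were higher in shNdufa5_1 and 62 where the label is shNdufa5_2, with medians of 0.41 and 0.29. Against shControl in SCM, 71 of 75 were lower in shNdufa5_1 (median -0.79) and 58 in the libraries labelled shNdufa5_2, whose median of -0.24 turned to 0.05 at equal FPKM sums. In PCM, 44 were lower and 3 higher in shNdufa5_1 (median -0.23), and 70 were higher in the libraries labelled shNdufa5_2 (median 0.48). Their median GC content was 52.0% and their median exon length 1830 bases, against 50.4% and 2533 bases for the mitochondrial ones. At equal FPKM sums the other medians kept their sign, with 0.40 for SCM against PCM in shControl.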

How the data were processed

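The authors deposited FPKM values per gene for 18 libraries. Per the submitters' processing notes, STAR 2.6.1 and DESeq2 were used with the builds GRCm38 and mm10. The counting tool, its use of strand and the denominator of the FPKM were not given in the sources used here. Whole fragments could be recovered from the steps of low values (99.47 to 99.8% of values within 0.1 fragment), and the median difference over all genes was close to 0 in each comparison, so the deposited values stand on a common median gene.

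The 11084 genes whose mean FPKM reached 1 were kept. Values were analysed as log2(FPKM + 1), which understates changes of low genes, in 1 limma model over 6 groups with a variance trend, in R 4.3.3 with limma 3.58.1. Python 3.11.15, pandas 2.3.3, numpy 2.4.6 and matplotlib 3.10.9 were used for the rest. P-values were adjusted by Benjamini-Hochberg over all genes tested and called under 0.05. The fit was tested on simulated data, where 200 of 11084 genes were changed: 80.5% of those changed by 0.5 on the log2 scale were recovered for SCM against PCM in shControl, and 36% of those changed by 0.3. For the medium response of shNdufa5_1 against that of shControl it recovered 63% and 7%, so that small differences between responses could be missed. Far more genes were called in the data, 3517 higher and 3346 lower for SCM against PCM in shControl, than were changed in the simulation. The recovered shares therefore do not give the power of the reported tests. Named are the 8 largest called differences in each direction of each comparison, the 5 highest and 5 lowest levels, and the genes whose subunit name and place differ. Genes called in opposite directions in different lines were named after their values were seen. Members and lists were chosen with earlier results of these data known. Alternatives covered the pseudocount, the filter, the scaling, GC content and length, the model, the replicate number as a block and each library left out.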

Additional observations from a re-analysis of the deposited data

Results flagged for a closer look

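The response to SCM differed between a hairpin line and shControl by a test of that difference (limma, adjusted p under 0.05) for 24 members in shNdufa5_1 (2 higher, 22 lower) and 46 where the label is shNdufa5_2 (2 higher, 44 lower). Given here are the 20 largest, up to 8 in each direction of each contrast, on the deposited scale. Scaled to equal FPKM sums, the contrasts gave 42 higher and 0 lower for shNdufa5_1 and 35 higher and 1 lower where the label is shNdufa5_2. That scaling shifted all genes, to medians of 0.46 and 0.52, and the members' medians of 0.35 and 0.29 stayed below these. All 20 use the same shControl libraries, and each value is the log2 response of the hairpin line minus that of shControl. For shNdufa5_1 the difference was positive for Mrps2 (0.67) and Mrps7 (0.47). It was negative for Mrpl42 (-0.77), Mrpl20 (-0.72), Mrps24 (-0.70), Mrpl12 (-0.69), Mrpl52 (-0.64), Mrpl46 (-0.64), Mrpl16 (-0.62) and Mrpl58 (-0.59).

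For the libraries labelled shNdufa5_2 the difference was positive for Mrps2 (0.51) and Mrpl1 (0.50). It was negative for Mrps24 (-0.99), Mrpl20 (-0.85), Mrpl46 (-0.83), Mrpl12 (-0.80), Mrpl28 (-0.78), Mrpl16 (-0.74), Mrpl52 (-0.72) and Mrpl58 (-0.70). Single values within a group were not screened for outliers, since each group has 3 libraries.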

How the results depend on the processing

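With 3 libraries a group and 115 fragments for the least covered member in a library, small differences of low members could be missed. For SCM against PCM in shControl, the members' median minus that of all genes was 0.265 as deposited and 0.241 at equal fragments. It was 0.194 at equal FPKM sums and 0.143 with GC and length trends removed. Of 133 results for single genes, 133 kept their direction and call at a pseudocount of 0.1, 127 under quantile normalization, 126 at equal fragments, 105 with GC and length trends removed and 63 at equal FPKM sums. In the counts and medians below, higher and lower are numbers of members. Where no value shows it, the cause was not tested. At equal FPKM sums, a scaling that shifts all genes, SCM against PCM gave 2 higher and 46 lower (median -0.30) in shControl, 4 and 4 in shNdufa5_1, and 1 and 0 where the label is shNdufa5_2. Against shControl in PCM it gave 2 higher (median -0.30) in shNdufa5_1, and 0 higher with 39 lower (median -0.23) where the label is shNdufa5_2. In SCM it gave 19 higher and 18 lower (median -0.00094) in shNdufa5_1 and 7 and 5 (median 0.070) where the label is shNdufa5_2. The medium response against that of shControl gave 42 and 0 (median 0.35) for shNdufa5_1 and 35 and 1 (median 0.29) for the libraries labelled shNdufa5_2. In the same order, the medians of all genes were -0.50, -0.03 and 0.03 for SCM against PCM. They were -0.12 and -0.30 against shControl in PCM, 0.34 and 0.23 in SCM, and 0.46 and 0.52 for the medium responses. Shares of all genes called under this scaling are not given here. Single genes that turned were, in shControl with SCM, Mrpl24 (-0.010), Mrps18a (-0.13), Mrps18b (-0.16), Mrps30 (-0.25), Mrps36 (-0.27), Mrpl20 (-0.043) and Mrpl46 (-0.064), and Mrpl54 (-0.0021) in the libraries labelled shNdufa5_2 against shControl in PCM. Ndufa5 in these libraries was then called in PCM (-0.42) and not in SCM (-0.15).

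At equal fragments, chosen after the data were seen, SCM against PCM gave 25 higher and 21 lower (median 0.036) in shControl and 18 lower where the label is shNdufa5_2. Libraries with that label against shControl gave 11 and 11 (median 0.017) in PCM and 2 and 19 (median -0.11) in SCM, and shNdufa5_1 in SCM gave 12 higher (median -0.23). The medium response gave 11 and 14 (median 0.028) for shNdufa5_1 and 7 and 23 (median -0.14) for the libraries labelled shNdufa5_2. At equal fragments the medians of all genes were -0.20 for SCM against PCM in shControl and -0.06 where the label is shNdufa5_2. Against shControl they were -0.07 in PCM and 0.07 in SCM with that label, and 0.15 for shNdufa5_1 in SCM. For the medium responses they were 0.16 and 0.13. Under quantile normalization the medians were 0.15 for SCM against PCM in shControl, -0.29 for shNdufa5_1 and -0.13 (20 lower) for the libraries labelled shNdufa5_2 against shControl in SCM, and -0.11 and -0.22 (28 lower) for the medium responses. With no filter, 4 were lower with SCM in shNdufa5_1 and 2 in the libraries labelled shNdufa5_2 against shControl in PCM, where a fit on the groups compared gave 8.

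With GC and length trends removed, the median was 0.17 for SCM against PCM in shControl, with large minus small at -0.059, and -0.29 for shNdufa5_1 against shControl in SCM, with large minus small at 0.16. In PCM, 13 were higher in shNdufa5_1 and 15 where the label is shNdufa5_2, and 29 were lower (median -0.19) in the medium response of the shNdufa5_2 label. Same-numbered libraries correlated at -0.0925 to 0.0646 in their deviations from the group means, and libraries with different numbers at -0.0973 to 0.0958. Whether the numbers mark a shared day or culture is not stated in the labels. With the replicate block, the counts were 46 higher and 10 lower for SCM against PCM in shControl and 5 higher and 54 lower for shNdufa5_1 against shControl in SCM, and 2 of the 133 results, Mrpl9 and Mrpl1 of shNdufa5_1, lost their call. The block with GC and length trends removed gave medians of 0.17, -0.29 and -0.19, large minus small of -0.059 and 0.16, 13 higher and 28 lower in the places named for the trends alone.

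Leaving out each library in turn gave 4 to 9 higher for shNdufa5_1 against shControl in PCM (4 without shControl replicate 2, 5 without shNdufa5_1 replicate 3). For the libraries labelled shNdufa5_2 against shControl in PCM it gave 15 to 21 higher (15 without shControl replicate 1) and 2 to 4 lower (2 without shControl replicate 3 or replicates 1 or 2 of their own). SCM against PCM in shNdufa5_1 gave 7 to 12 higher (7 without SCM replicate 1) and 3 to 9 lower (3 or 4 without SCM replicates 1 or 2 or PCM replicates 1 or 3). In the libraries labelled shNdufa5_2 it gave 1 to 3 higher (1 without PCM replicates 2 or 3 or SCM replicate 2) and 7 to 10 lower (7 without PCM replicate 1). Against shControl in SCM, shNdufa5_1 gave 3 to 7 higher (7 without shControl replicate 2), and the libraries labelled shNdufa5_2 gave 1 to 2 higher (2 without shControl replicate 3 or their replicate 2) and 23 to 35 lower (23 without shControl replicate 2), with Ndufa5 at -0.56 to -0.33. Without both shControl libraries numbered 2, the counts were 4 higher for shNdufa5_1 in PCM and, for the libraries labelled shNdufa5_2, 2 lower in PCM and 22 lower in SCM, with Ndufa5 at -0.34 and no longer called.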

Other observations

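Of the members, 25 start within 500 bases of a protein-coding gene that runs the other way, and 22 of these pairs were tested. Mrpl46 and Mrps11 are each other's neighbour, so their pair was counted in both directions and both stand among the neighbours as well. With SCM in shControl, 10 of the 22 neighbours were higher and 3 lower on the deposited scale, against 31.7% and 30.2% of all genes, and members and neighbours both had a median log2 difference of 0.06. Across these 22 pairs of genes, which share libraries and are not independent replicates, Spearman's rho between the differences was -0.162. Pairs could differ in direction: Mrps18b differed by 0.42 and its neighbour Ppp1r10 by -0.88 and Mrpl32 by -0.46 and the proteasome gene Psma2 by 0.26. Mrps18b differed by -0.16 at equal FPKM sums, where all genes stood at -0.50. These pairs were chosen after their values were seen.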
